A study of Homo sapiens with 2 samples.

Results

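Translesion synthesis lets a replication fork copy past a damaged or blocked template with specialised DNA polymerases that accept distorted bases at the cost of accuracy. RAD18 attaches ubiquitin to the sliding clamp PCNA, which helps recruit Y-family polymerases. REV1 holds these inserters beside polymerase zeta, which extends from the inserted base. PRIMPOL offers another route by priming DNA synthesis again beyond the block. The genes described here are POLH, POLI, POLK, REV1, REV3L, MAD2L2, POLQ, POLN, PRIMPOL and RAD18. They were chosen by symbol, with earlier results of these data known, and all 10 were among the 17912 entries of the deposited table.

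Polyadenylated RNA came from U2OS, an established human osteosarcoma line, cultured without synchronisation and exposed to aphidicolin at 0.3 µM over 18 h. The drug blocks the B-family polymerases that carry out bulk replication, and the study maps sites of mitotic DNA synthesis and common fragile sites. Both libraries (replicates 1 and 2) belong to this 1 treated group, and no untreated library was analysed here. The values below are therefore levels under the drug and not responses to it. Whether each library had a culture of its own is not stated in the labels, so the SDs measure a spread that may be technical. The p-values weigh a difference against counting error alone and hold no estimate of the spread between libraries. In bulk RNA, fewer cells with a transcript and less transcript per cell cannot be told apart.

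The deposited unit is RPKM, read counts scaled by exonic length and by library total. The totals behind that scaling, as recovered from the RPKM, were 13227805 and 13020149 reads. A gene is called expressed here at 1 RPKM or more in both libraries, and 66.7% of all entries passed. Of the mesenchymal and bone genes, SPARC at 280 RPKM, VIM at 249 RPKM and COL1A1 at 209 RPKM were high on average. The osteoblast factor RUNX2 was at 8.55 RPKM, above 68.1% of entries, and ALPL at 2.23 RPKM, above 42.5%. Of the line and tissue genes, 5 of 8 listed passed. Among them BGLAP, COL1A2 and CDKN2A stayed below 1 RPKM, and TERT was not listed. Markers of other cell types passed in 1 of 4 listed cases for blood, 0 of 2 for endothelium, 1 of 2 for liver, 2 of 3 for neurons and 3 of 4 for epithelium, where KRT18 reached 42.6 RPKM and KRT8 29.8 RPKM. The liver marker SERPINA1 was higher, at 59.8 RPKM, and the neuronal marker SNAP25 was at 5.73 RPKM. Blood markers summed to 2.54 RPKM in replicate 1 and 2.53 RPKM in replicate 2.

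Of the 10 genes, 9 were expressed, beside 66.7% of all entries, and POLN was below the level. The median of the 10 was 6.74 RPKM in replicate 1 and 7.02 RPKM in replicate 2, beside a median of 3.53 RPKM over all entries. Their combined median of 6.88 RPKM was higher than 63.3% of entries. Of the 10 genes, 8 lay above the median entry. At 5 RPKM, 6 of the 10 passed, beside 42.8% of entries. All 10 passed at 10 reads in both libraries, a mark that 82.1% of entries with known reads reached, at 1 CPM (79.5% of those entries) and at 1 TPM (81.6% of entries). At 0.5 RPKM it was 9 of the 10, beside 73.9%. CPM is reads scaled by library total alone, and TPM is RPKM rescaled to the same sum in each library. Levels ran from 33.0 RPKM for MAD2L2 to 0.301 RPKM for POLN, a 110-fold range, and the range was 18.3-fold among the 9 expressed genes.

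**Figure D1:**
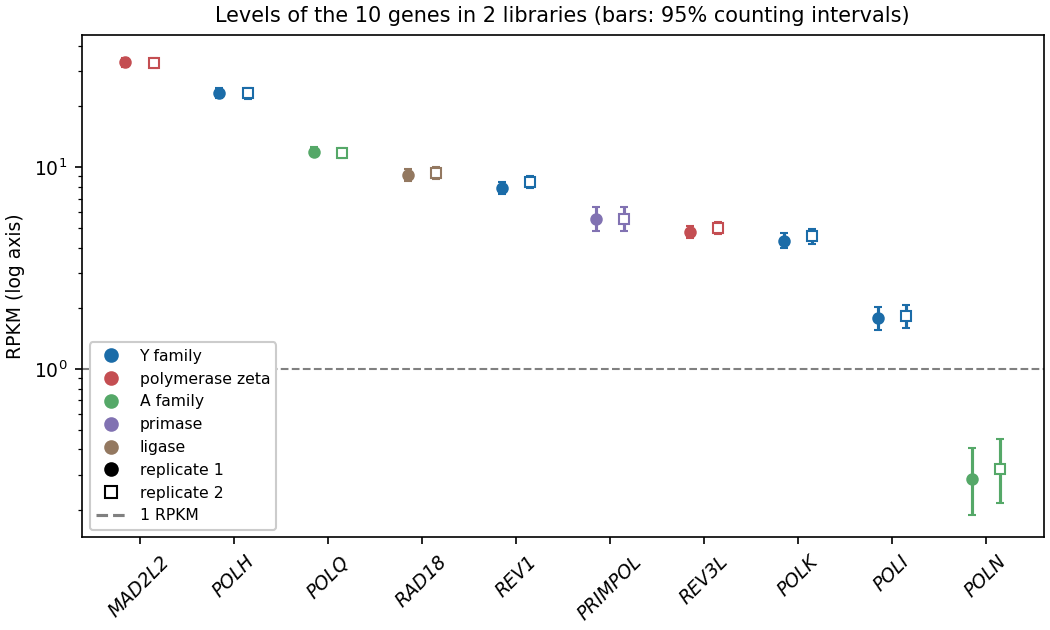
RPKM (log axis) of each gene in replicate 1 (filled circles) and replicate 2 (open squares), coloured by role, with exact Poisson 95% intervals that cover counting error only and a dashed line at 1 RPKM. The libraries lie nearly on each other for every gene, and POLN, at 0.284 and 0.318 RPKM, is the gene below the line.

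The stretches of DNA between gene starts are shown because MAD2L2 and POLH begin a short distance from a neighbour on the opposite strand with no shared exon, and POLN, the lowest of the 10, begins beside a neighbour on its own strand. The sequences come from RefSeq windows on GRCh38.p14 and run 5′ to 3′ toward the first-named gene. They are limited to bases that no exon of GENCODE release 29 covers. Capitals mark the GC box GGGCGG and the E2F core GGCGGGA on either strand, which can overlap each other. The interval between MAD2L2 and DRAXIN is chr1:11691651-11691728, minus strand, with 78 bases. Between POLH and XPO5 it is chr6:43576076-43576149, plus strand, with 74 bases. The stretch upstream of POLN and of HAUS3, which have the same RefSeq window, is chr4:2242165-2242371, minus strand, with 207 bases.
MAD2L2: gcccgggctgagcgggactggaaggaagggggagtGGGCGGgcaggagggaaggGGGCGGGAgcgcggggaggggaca
POLH: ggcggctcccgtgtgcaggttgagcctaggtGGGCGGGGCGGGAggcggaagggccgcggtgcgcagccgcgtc
POLN: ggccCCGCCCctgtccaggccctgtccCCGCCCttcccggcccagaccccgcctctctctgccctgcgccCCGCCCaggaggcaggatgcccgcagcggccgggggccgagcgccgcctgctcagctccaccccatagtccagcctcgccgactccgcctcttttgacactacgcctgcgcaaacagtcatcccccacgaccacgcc

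The intervals printed for MAD2L2 and POLH each held both motifs, and the POLN stretch held GC boxes alone. Over the 250 bases before the RefSeq starts, the 10 genes had 12 windows, since MAD2L2 and REV3L have 2 each. GGGCGG was found on either strand in 11 of the 12 windows and in 42.5% of 34943 windows of all genes. GGCGGGA was found in 5 of the 12 and in 13.5% of all windows. CCAAT occurred in 1 of the 12 and in 32.0% of all, and CACGTG in 2 of the 12 and in 6.32% of all. The GC content of the 12 windows ranged from 48.4% before POLQ to 81.6% before MAD2L2, beside a median of 58% over all windows. A match of letters is a description of the window and not a binding site.

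Among genes that share a start region, the pairs of POLN, MAD2L2 and REV3L lay far apart in RPKM. Those of POLH and POLK lay closer, and the order within these closer pairs changed between RPKM and CPM. HAUS3, which encodes a subunit of the augmin complex of the spindle, had levels of 2.35 and 2.52 RPKM in replicates 1 and 2. It was thus 8.09 ± 0.25 times (SD, n = 2) the level of POLN in RPKM and 5.39 times in CPM, although both have the same RefSeq window. DRAXIN, which starts 79 bases from MAD2L2 on the opposite strand, was at 1.63 and 1.65 RPKM, and MAD2L2 was 20.1 ± 0.29 times its level in RPKM and 9.08 times in CPM. XPO5, the export receptor of microRNA precursors, starts 75 bases from POLH and was at 20.3 and 19.7 RPKM, so that POLH was 1.17 ± 0.024 times its level in RPKM but 0.487 times in CPM. POLK starts within 382 bases of CERT1, a ceramide transfer gene, at 3.20 and 2.88 RPKM, and was 1.47 ± 0.16 times its level in RPKM but 0.734 times in CPM. On the strand opposite REV3L, the antisense gene TRAF3IP2-AS1 starts 204 bases away and was at 0.565 and 0.494 RPKM, beside 4.77 and 5.03 RPKM for REV3L. The antisense gene AC093462.1 starts 624 bases from POLI, and no level was matched to it. The neighbours other than HAUS3 were named after their values were seen.

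Among the inserters of the Y family, POLH was the highest. It encodes polymerase eta, which copies ultraviolet-induced thymine dimers accurately and is lost in xeroderma pigmentosum variant. Its level was 23.4 RPKM in replicate 1 and 23.3 RPKM in replicate 2, or 23.3 ± 0.074 RPKM (SD, n = 2), from 1094 and 1072 reads. POLH lies on chromosome 6 from 43576150 to 43615660 and ranked above 87.9% of entries.

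REV1 encodes a deoxycytidyl transferase that serves mainly as the scaffold for the other polymerases. Its level was 7.93 RPKM in replicate 1 and 8.48 RPKM in replicate 2, from 815 and 858 reads, a mean of 8.21 ± 0.39 RPKM. REV1 lies on chromosome 2 from 99400475 to 99490035. A stretch of 852 exonic bases, 10.97% of its exons, is shared with EIF5B on the opposite strand, a translation initiation gene at 53.9 RPKM. The use of strand in counting is not given in the sources used here, so reads of these genes may not be told apart in that stretch, and its part in the level of REV1 was not tested.

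POLK encodes polymerase kappa, which copies past bulky adducts on guanine. It was at 4.33 RPKM in replicate 1 and at 4.56 in replicate 2, from 521 and 541 reads, and lies on chromosome 5 from 75511756 to 75601144. Of its exonic bases, 10.8% are shared with genes on the opposite strand, 754 with the antisense gene AC010245.1 and 230 with CERT1. POLI encodes polymerase iota, an inserter of very low accuracy opposite thymine. It was at 1.79 RPKM in replicate 1 and at 1.82 in replicate 2, from 224 and 225 reads, and lies on chromosome 18 from 54269404 to 54321266. It shares 625 exonic bases, 6.599% of its exons, with AC093462.1. The part of these overlaps in the levels of POLK and POLI was not tested. POLI was the lowest of the Y family and of all 9 expressed genes, under the median entry.

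Within the summed RPKM of the Y family, POLH made up 61.7 ± 1.0%, REV1 21.7 ± 0.74%, POLK 11.8 ± 0.29% and POLI 4.78 ± 0.0040%. POLH was 12.9 ± 0.23 times POLI, 5.25 ± 0.22 times POLK and 2.84 ± 0.14 times REV1 in RPKM. The ratios narrowed in CPM, to 4.82, 2.04 and 1.29, and POLH stayed the highest of the family. The exons of POLH amount to 3540 bases, beside 7769 for REV1, 9105 for POLK and 9471 for POLI.

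Polymerase zeta pairs the catalytic subunit REV3L with MAD2L2, also called REV7, and with POLD2 and POLD3, which it shares with the replicative polymerase delta. REV3L was at 4.77 RPKM in replicate 1 and at 5.03 in replicate 2, from 784 and 813 reads, a mean of 4.90 ± 0.18 RPKM. It lies on chromosome 6 from 111299028 to 111483715, and 5.58% of its exonic bases are shared with antisense genes. MAD2L2 was at 33.2 RPKM in replicate 1 and at 32.8 in replicate 2, from 1459 and 1421 reads, and lies on chromosome 1 from 11674480 to 11691650. With a mean of 33.0 ± 0.25 RPKM it was above 92.4% of entries and the highest of the 10 genes.

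All noncatalytic subunits were above the catalytic one in both libraries. MAD2L2 was 6.74 ± 0.30 times REV3L in RPKM, POLD2 was 14.8 ± 0.029 times and POLD3 was 3.39 ± 0.21 times. The size of the MAD2L2 ratio rested on length: it was 1.80 in CPM and 10.5 per kilobase of the principal transcript, the main coding transcript of each gene in GENCODE. POLD2 was 4.41 times REV3L in CPM, and POLD3 was at 91.3 CPM beside 60.9 CPM for REV3L. POLD2 itself was at 72.6 ± 2.5 RPKM and POLD3 at 16.6 ± 0.39 RPKM.

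POLQ and POLN encode the A-family polymerases theta and nu. Polymerase theta joins broken ends through short homologies and can also bypass lesions. POLQ was at 11.9 RPKM in replicate 1 and at 11.8 in replicate 2, from 1478 and 1438 reads, a mean of 11.8 ± 0.097 RPKM. It lies on chromosome 3 from 121431427 to 121546641. POLN was at 0.284 RPKM in replicate 1, with a 95% counting interval of 0.190 to 0.408 RPKM. In replicate 2 it was at 0.318 RPKM, with an interval of 0.218 to 0.449 RPKM. Those levels rest on 29 and 32 reads. POLN lies on chromosome 4 from 2071918 to 2242121 and shares 10.4% of its exonic bases with other genes, 686 bases of them with HAUS3, so part of its few reads may be ambiguous. POLQ was 39.5 ± 3.5 times POLN in RPKM and 47.8 times in CPM.

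PRIMPOL, the primase-polymerase that restarts synthesis past a block, was at 5.557 RPKM in replicate 1 and at 5.563 in replicate 2. These came from 205 and 202 reads, so the 95% counting interval of replicate 1 ran from 4.82 to 6.37 RPKM, far wider than the gap between the libraries. PRIMPOL lies on chromosome 4 from 184649613 to 184694963. It shares 346 exonic bases, 12.2% of its exons, with the centromere gene CENPU on the opposite strand, at 26.2 RPKM, and the part of that overlap in its level was not tested. The replicative primase genes were higher, PRIM1 at 3.72 ± 0.36 times PRIMPOL and PRIM2 at 1.96 ± 0.026 times in RPKM, or 3.81 and 3.98 times in CPM.

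RAD18, the ubiquitin ligase for PCNA, was at 9.16 RPKM in replicate 1 and at 9.37 in replicate 2, from 846 and 852 reads. It lies on chromosome 3 from 8775402 to 8963773 and shares no exonic base with another annotated gene. UBE2A and UBE2B encode the conjugating enzymes that work with RAD18. These 2 genes were close to each other in RPKM, at 14.8 ± 0.57 and 14.9 ± 0.41, but not in CPM, at 77.1 and 46.5. RAD18 was 0.626 ± 0.014 times UBE2A in RPKM and 0.839 times in CPM, and 0.621 ± 0.0070 times UBE2B in RPKM but 1.39 times in CPM. USP1, the protease that removes ubiquitin from PCNA, was at 58.9 ± 0.96 RPKM, 6.36 ± 0.21 times RAD18 in RPKM and 3.52 times in CPM.

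In the order of RPKM, MAD2L2 was followed by POLH, POLQ, RAD18, REV1, PRIMPOL, REV3L, POLK, POLI and POLN. For all 9 pairs of neighbours in this order, the lower library of the higher gene lay above the higher library of the lower gene. By counting intervals on the reads of both libraries together, 7 of the 9 pairs were apart. PRIMPOL, with 5.03 to 6.13 RPKM, was not separated from REV3L, with 4.66 to 5.14 RPKM. REV3L was not separated from POLK, with 4.18 to 4.72 RPKM. Both genes of a pair were measured in the same 2 libraries, which are too few for a test, so no test between genes was made.

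The order depended in part on length. In CPM, POLQ came first at 111 CPM, MAD2L2 next at 110 CPM and then POLH at 82.5 CPM, while PRIMPOL was at rank 9 in place of rank 6. POLQ (1478 and 1438 reads) and MAD2L2 (1459 and 1421 reads) were close on that scale. Of the 9 pairs of neighbours, 6 stayed apart in the same direction. Per kilobase of the principal transcript, 7 stayed apart, with REV1 above RAD18 and POLK above REV3L. The length behind the RPKM equalled all annotated exons of a gene together for 7 of the 10 genes, and it was 1.79 times the principal transcript for MAD2L2, 1.64 times for REV1, 1.54 times for POLK and for POLI, and 2.37 times for POLN. On that scale MAD2L2 was at 59.0 ± 0.44, REV1 at 13.4 ± 0.64, POLK at 6.85 ± 0.26, POLI at 2.79 ± 0.040 and POLN at 0.715 ± 0.058 reads per kilobase, scaled by library total. MAD2L2 and POLH remained above, and POLI and POLN below, the other genes under both length-based measures.

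**Figure D2:**
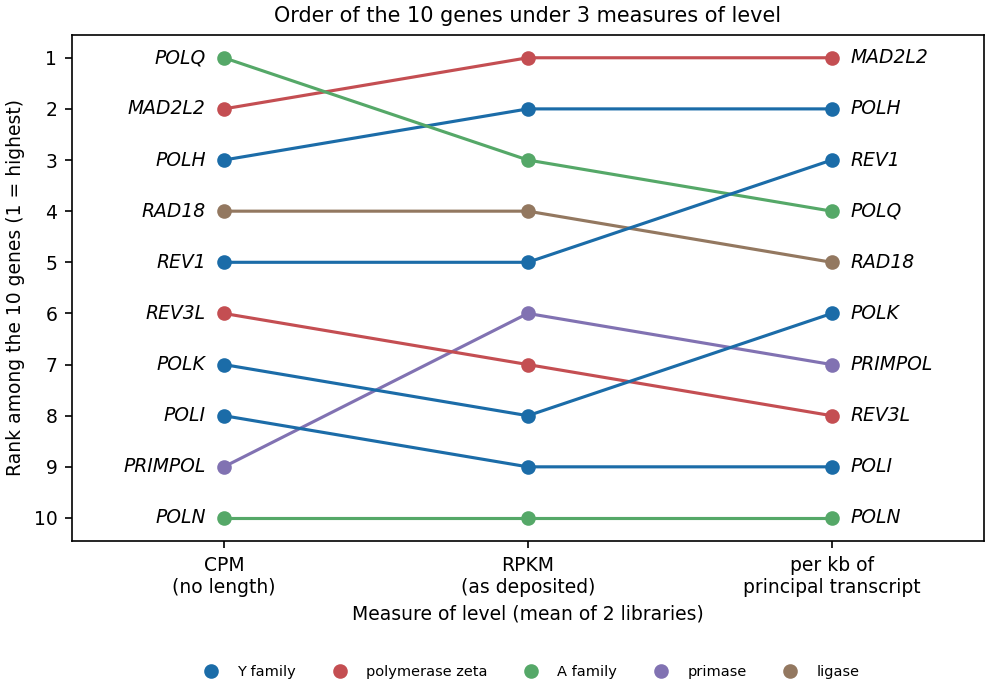
Rank of each gene (1 is highest, mean of both libraries) by CPM, by RPKM as deposited and by reads per kilobase of the principal transcript, coloured by role. POLN is lowest under all 3 measures, while POLQ moves from rank 1 in CPM to rank 3 in RPKM and PRIMPOL from rank 9 to rank 6.

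Both libraries gave nearly the same level for every gene. A 2-sided exact binomial test on reads, with Benjamini-Hochberg adjustment over 11816 expressed entries, called 0 of the 9 expressed genes different, beside 1.72% of those entries. At an unadjusted p under 0.05 the count was also 0 of 9, beside 12.0% of entries, and Fisher's exact test called 0 as well. The log2 ratio of replicate 2 over replicate 1 ranged from -0.0095 for POLQ to 0.10 for REV1, whose adjusted p of 0.62 by the exact binomial test was the smallest of the 9. In RPKM, 7 of the 10 were higher in replicate 2 and 3 in replicate 1. The coefficient of variation ran from 0.0764% for PRIMPOL to 8.07% for POLN. It is a comparison of 2 libraries of the same condition, and counting error is all that it covers.

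**Figure D3:**
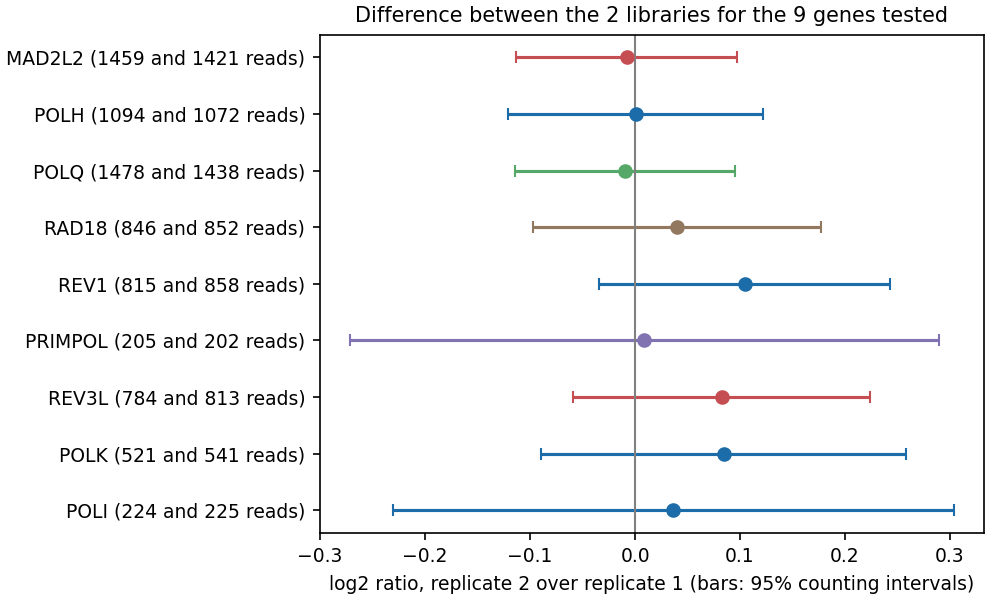
log2 ratio of replicate 2 over replicate 1 for the 9 expressed genes, with approximate 95% intervals from the counting error and the reads of each library beside the name. Every interval includes 0, and REV1 has the ratio farthest from 0, at 0.10.

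The other genes of the pathway were expressed throughout the listed members. Of 54 genes in 6 lists, 53 were listed and all 53 passed 1 RPKM in both libraries, beside 66.7% of all entries. DNTT, the template-independent polymerase of lymphocytes, was not listed. Their median was 13.6 RPKM, beside 6.88 RPKM for the 10 genes. This gap and the list medians below rest on division by exonic length. Medians of the lists were not compared in CPM, so the gap holds for RPKM only. The lists were chosen with earlier results of these data known.

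The list for PCNA modification held 15 genes, PCNA included, and all 15 passed, with a median of 14.9 RPKM. PCNA itself was highest at 216 ± 5.3 RPKM, 23.4 ± 0.95 times RAD18 in RPKM and 4.69 times in CPM, and the clamp ligase gene SHPRH was lowest at 1.73 ± 0.025 RPKM. The partners at the stalled fork passed in 11 of 11 cases with a median of 24.8 RPKM. They were led by VCP, a segregase that extracts ubiquitinated proteins, at 128 ± 0.96 RPKM, and SPRTN, a protease for proteins crosslinked to DNA, was lowest at 5.47 ± 0.0065 RPKM. All 4 fork reversal genes passed, from ZRANB3, a translocase that binds modified PCNA, at 1.04 ± 0.018 RPKM to the translocase gene HLTF at 19.5 ± 0.0031 RPKM. HLTF also belongs to the PCNA list.

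The other DNA polymerase and primase genes passed for all 9 that were listed, and their median was 10.9 RPKM. POLD1, the catalytic subunit of polymerase delta, was highest at 26.9 ± 1.3 RPKM, and the gap-filling polymerase gene POLL was lowest at 5.36 ± 0.21 RPKM. POLE was at 12.4 ± 0.034 RPKM and POLA1 at 11.2 ± 0.66 RPKM. The B-family gene REV3L was lower than each of these catalytic subunits: POLD1 was 5.50 ± 0.46 times REV3L, POLE 2.54 ± 0.10 times and POLA1 2.29 ± 0.051 times in RPKM. In CPM these ratios were 2.18, 3.42 and 1.22. POLH stood between POLA1 and POLD1, at 2.08 ± 0.13 times POLA1 and 0.868 ± 0.038 times POLD1 in RPKM, or 1.11 and 0.622 times in CPM. POLE was 0.532 ± 0.00021 times POLH in RPKM but 2.52 times in CPM, so the direction of that difference flipped with the division by length. POLQ was 0.954 ± 0.0052 times POLE in RPKM and 0.533 times in CPM.

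MAD2L2 also acts outside lesion bypass, in shieldin, which protects broken ends from resection, and its fold is remodelled by TRIP13. All 9 genes of that list passed, with a median of 9.25 RPKM. TRIP13 was highest at 35.8 ± 1.4 RPKM and the shieldin gene SHLD1 lowest at 1.24 ± 0.088 RPKM. Genes that work with polymerase theta or beside it in end joining passed in 6 of 6 cases with a median of 20.4 RPKM, from the ligase gene LIG3 at 4.02 ± 0.19 RPKM to the poly(ADP-ribose) polymerase gene PARP1 at 57.1 ± 0.23 RPKM.

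**Figure D4:**
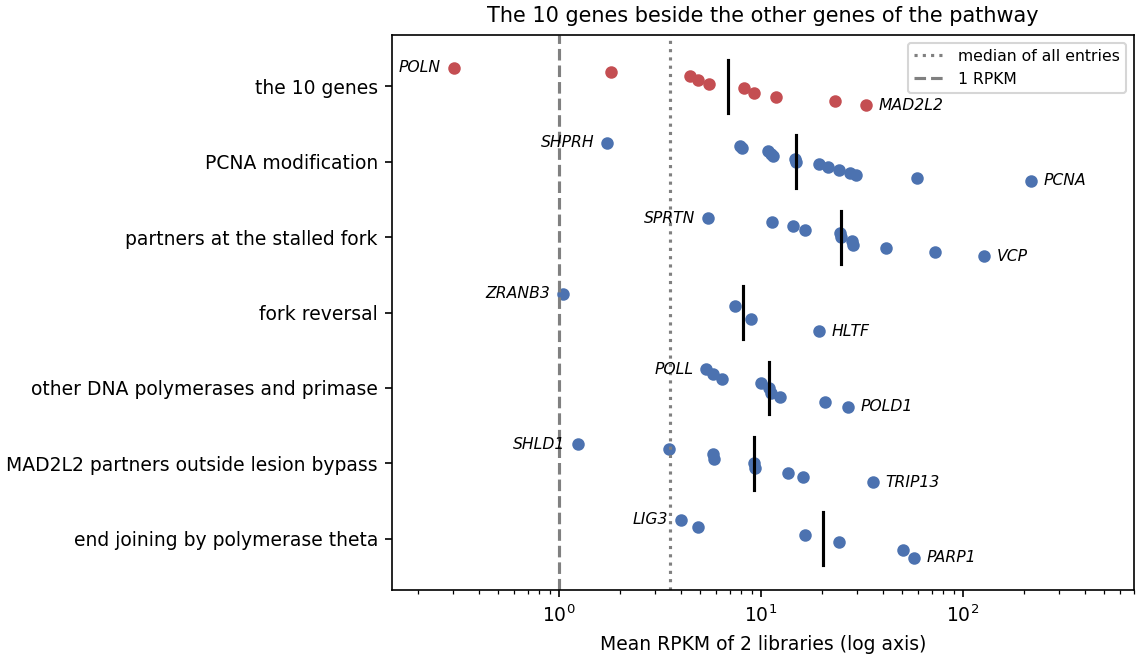
Mean RPKM of both libraries (log axis) for the 10 genes (red) and 6 lists of pathway genes (blue), with a black bar at each median, a dotted line at the median of all entries (3.53 RPKM) and a dashed line at 1 RPKM. POLN, at 0.301 RPKM, is the gene left of the dashed line, and PCNA, at 216 RPKM, is farthest to the right.

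For each of the 10, the pathway gene nearest in level was taken as the one most alike, by the root mean square difference of log2 RPKM over the 2 libraries. RAD18 was nearest to RIF1, a factor that limits resection, with a difference of 0.0026, and PRIMPOL was nearest to SPRTN with 0.023. POLQ was nearest to UBE2N with 0.050, POLH to LIG1 with 0.062, POLI to SHPRH with 0.065, REV1 to RNF8 with 0.069 and REV3L to HELQ with 0.070. MAD2L2 was nearest to TRIP13 with 0.12 and POLK to LIG3 with 0.15. In RPKM, POLN stood apart from all 53 genes, its nearest being ZRANB3 with a log2 difference of 1.80. In CPM it was close to SHLD1, at 2.33 CPM beside 2.71 CPM. With only 2 libraries of 1 group, likeness to a nearest gene is one of level alone.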

How the data were processed

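The submitters' processing notes name HISAT2, featureCounts and Trim Galore, and as builds GRCh38.p13 and hg38. For versions, annotation, strand setting and filters nothing is given in the sources used here. The authors deposited RPKM in 1 table, per the file headers, with a column per library. Its 18277 rows included 58 symbols with several rows, left out here, and values shared by several symbols counted a single time, for 17912 entries in all. No value was 0.

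Reads were recovered from the RPKM. Dividing one column by the other gave ratios of whole numbers within 3.3e-14, genes with equal reads gave the totals, and whole lengths within 1e-06 bases fixed reads up to a factor. That factor was set from exonic length in GENCODE release 29. Recovered length equalled GENCODE's for 7 of the 10 genes and, over entries with reads (96.7%), for 43.9%. Recovered reads came to 97.9% and 98.0% of the totals. A simulation of 16880 genes was built on these totals, and they came back exactly. A common factor lost from the real totals could not show in this simulation. There the library test called 99.0% of 200 genes changed 2-fold, and 5.26% of its 209 calls were unchanged genes. Both shares belong to the simulated libraries only. Between the real libraries, 12.0% of 11816 expressed entries had an unadjusted p under 0.05 by the exact binomial test. How often the test errs on the real libraries was not tested.

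Levels are means ± SD of the 2 libraries. Intervals are exact Poisson at 95% and cover counting error only. The library test scaled by the trimmed mean of M values (0.995 for replicate 2) with an adjusted p limit of 0.05. The 10 genes and all lists were chosen with earlier results of these data known. The rule for named genes took the 10, the highest and lowest of each list, any listed gene below 1 RPKM, polymerase subunits, the nearest gene in level and genes sharing exons. Of those sharing exons, GTPBP2 (4 bases with POLH), AL080317.3 (576 bases with REV3L) and AL136360.1 (119 bases with POLN) are named only here. Neighbours that start within 1000 bases on the opposite strand were added, of which 1 is not reported here. Promoter windows are RefSeq's on GRCh38.p14, and all 10 genes matched. Alternatives covered the level, scaling, length, pseudocount, background and single libraries. The software was matplotlib 3.10.9, pandas 2.3.3, scipy 1.17.1, numpy 2.4.6 and Python 3.11.15.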

Additional observations from a re-analysis of the deposited data

How the results depend on the processing

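No paired analysis was possible because the labels give 1 group. The number of expressed genes among the 10 (9) was 9 without either replicate and at 0.5 RPKM, 6 at 5 RPKM, and 10 at 1 TPM, at 1 CPM and at 10 reads, levels that POLN passed. Their median (6.88 RPKM) was 8.21 RPKM over the 9 expressed genes, by construction, and 8.92 per kilobase of the principal transcript, 6.74 to 7.02 without either replicate, and 6.88 with a pseudocount of 1 or 0.1. Its percentile (63.3) was 74.1 in CPM, 44.95 among expressed entries, 58.4 among protein-coding entries and 62.7 to 63.8 without either replicate. The value among expressed entries sets the median of all 10 genes, POLN included, against entries that passed 1 RPKM, so the sides are filtered unlike. The ratio of MAD2L2 to REV3L (6.74) was 1.80 in CPM, 10.5 per kilobase of the principal transcript and 6.53 to 6.96 without either replicate. None of 36 alternative list counts moved by over 1.5 times, but many could not fall, since all listed genes passed 1 RPKM in both libraries. Levels of 0.5 RPKM and 1 TPM are looser, and a single library is a weaker demand. At 5 RPKM the counts were 14 of 15 for PCNA modification, 3 of 4 for fork reversal and 7 of 9 for MAD2L2 partners. They were 4 of 6 for end joining, 11 of 11 for partners at the stalled fork and 9 of 9 for other polymerases and primase. No member differed between the libraries under any of the 5 other settings. Of these, the stricter limit of 0.01 reuses the main p-values, so it could not add a call. In the rest, the smallest adjusted p ran from 0.65 to 0.74 by the exact binomial or Fisher's exact test. The principal transcript and the order in CPM were tried after seeing the data. Depth limits POLN most.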
